A study of Mus musculus with 16 samples.

Results

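The genes of cell division described here are 44 genes of mitosis and DNA replication, of which 43 had a probe set on the array. A probe set is a group of short probes that together read 1 transcript. Per gene, the probe set with the highest mean over the 16 arrays was taken from those annotated to that gene alone. Ccnb1, the gene of cyclin B1, had none, so it has no expression values here and enters only the promoter counts. Mitosis genes made up 28 of the 43 and replication genes 15, out of 17097 genes with a probe set of 1 gene and 45037 probe sets in all.

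Arrays came from mice without NM1 (knockout, KO) and from wild-type mice (WT). The motor protein NM1, or nuclear myosin 1, is made from the gene Myo1c as an isoform and works in the nucleus, and the series asks what its absence does to gene expression. Skin fibroblasts came from KO mice 1550 and 1584 and from WT mice 1571 and 1623. Lungs and heart came from the same animals, KO mice 1586, 1602 and 1603 and WT mice 1592, 1593 and 1624. The sources used here name no strain, age, deleted part of the gene or growth state of the fibroblasts.

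A dividing cell first copies its DNA and then separates the copies. The transcripts for copying (the MCM helicase, the enzymes that make nucleotides, the clamp PCNA) are known as targets of E2F factors and peak around the start of S phase. The transcripts for separation (cyclin B, CDK1, kinesins, centromere and checkpoint proteins) peak later and are held down in resting cells by the DREAM complex, which binds a promoter element called CHR. Most cells of an adult heart and lung do not divide, whereas skin fibroblasts in culture can. In a bulk sample, fewer dividing cells and less RNA per dividing cell cannot be told apart.

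Promoters of members whose values follow are shown because mitosis and replication genes differed in the elements they hold. Each run is 300 bases long, from 250 before to 50 after a transcript start in RefSeq on GRCm38.p6, on the coding strand. Capitals mark 3 kinds of element, searched on either strand: the CCAAT box, the CHR in the form TTTGAA or in the form TTTAAA, and E2F sites (TTTGGCGC, TTTCCCGC, TTTCGCGC and TTTGCCGC). Where elements overlap, as in the middle of Mcm6, the capitals run on. The first 4 belong to mitosis genes, the last 3 to replication genes. They lie at chr10:69352863-69353162 (Cdk1, minus strand), chr2:164769679-164769978 (Ube2c, plus), chr11:99024140-99024439 (Top2a, minus), chr1:189688037-189688336 (Cenpf, minus), chr12:24708004-24708303 (Rrm2, plus), chr11:98907901-98908200 (Cdc6, plus) and chr1:128359656-128359955 (Mcm6, minus). Mcm6 was added after its sites had been found.
Cdk1: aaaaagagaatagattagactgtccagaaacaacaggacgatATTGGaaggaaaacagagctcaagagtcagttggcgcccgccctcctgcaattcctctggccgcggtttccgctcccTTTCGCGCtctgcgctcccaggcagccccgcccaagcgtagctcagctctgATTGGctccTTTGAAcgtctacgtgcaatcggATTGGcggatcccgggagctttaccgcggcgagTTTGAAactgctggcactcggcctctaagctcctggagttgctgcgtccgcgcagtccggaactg
Ube2c: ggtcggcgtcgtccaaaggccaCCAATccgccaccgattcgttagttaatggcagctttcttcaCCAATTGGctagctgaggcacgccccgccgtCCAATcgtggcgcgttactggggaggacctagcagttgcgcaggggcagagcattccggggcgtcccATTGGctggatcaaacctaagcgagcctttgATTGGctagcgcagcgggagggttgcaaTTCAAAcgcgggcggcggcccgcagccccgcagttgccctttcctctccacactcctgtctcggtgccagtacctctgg
Top2a: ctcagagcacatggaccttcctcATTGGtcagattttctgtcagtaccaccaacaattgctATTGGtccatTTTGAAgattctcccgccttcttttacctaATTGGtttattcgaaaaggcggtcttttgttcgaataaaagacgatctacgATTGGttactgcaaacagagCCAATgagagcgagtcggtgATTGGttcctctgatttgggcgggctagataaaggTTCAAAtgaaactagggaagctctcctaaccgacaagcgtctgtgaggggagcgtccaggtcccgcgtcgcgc
Cenpf: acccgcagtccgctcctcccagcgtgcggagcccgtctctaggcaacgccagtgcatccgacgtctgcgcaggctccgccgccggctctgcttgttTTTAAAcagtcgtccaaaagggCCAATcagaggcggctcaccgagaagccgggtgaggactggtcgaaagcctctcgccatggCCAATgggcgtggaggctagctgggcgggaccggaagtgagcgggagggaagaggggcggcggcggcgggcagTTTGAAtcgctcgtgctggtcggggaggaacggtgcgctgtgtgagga
Rrm2: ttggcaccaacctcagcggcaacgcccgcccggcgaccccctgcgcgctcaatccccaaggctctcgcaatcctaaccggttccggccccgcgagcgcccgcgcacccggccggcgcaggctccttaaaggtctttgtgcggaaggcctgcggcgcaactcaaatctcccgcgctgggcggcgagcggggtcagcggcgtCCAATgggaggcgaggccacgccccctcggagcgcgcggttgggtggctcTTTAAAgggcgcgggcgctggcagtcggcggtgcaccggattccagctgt
Cdc6: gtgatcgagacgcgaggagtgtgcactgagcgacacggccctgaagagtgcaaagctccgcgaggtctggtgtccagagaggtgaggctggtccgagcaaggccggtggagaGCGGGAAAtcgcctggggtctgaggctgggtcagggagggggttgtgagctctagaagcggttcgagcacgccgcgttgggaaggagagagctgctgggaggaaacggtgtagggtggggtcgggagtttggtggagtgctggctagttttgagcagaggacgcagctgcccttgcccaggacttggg
Mcm6: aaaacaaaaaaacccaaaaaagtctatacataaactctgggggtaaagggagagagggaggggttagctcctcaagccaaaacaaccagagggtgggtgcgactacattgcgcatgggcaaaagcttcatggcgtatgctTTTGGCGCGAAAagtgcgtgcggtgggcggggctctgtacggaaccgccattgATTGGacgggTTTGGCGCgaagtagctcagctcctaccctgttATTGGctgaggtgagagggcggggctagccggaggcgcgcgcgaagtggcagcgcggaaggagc

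A CHR was found in 19 of 24 mitosis promoters (79.2%) and in 4 of 13 replication promoters (30.8%), against 27.8% of 27025 promoters of all genes. A CCAAT box stood in 20 of 24 mitosis promoters (83.3%), in 8 of 13 replication promoters (61.5%) and in 37.9% of all. Both together were in 75% of the mitosis promoters and 23.1% of the replication promoters, against 10.9% of all. Of the mitosis promoters, that of Cdk1 alone held an E2F site by these letters (4.17%), while 6 of 13 replication promoters held one (46.2%), against 2.32% of all. The 6 included 4 of the 5 MCM promoters in the table. Top2a and Ube2c each carried 6 CCAAT boxes, and Mcm6 carried 3 E2F sites, of which 2 overlap. These matches describe letters in a window. They are no evidence of binding, and of the 44 genes 37 had an entry, all but Kif20a, Ccne2, Foxm1, Aurkb, Tpx2, Mcm4 and Ccna2.

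The arrays matched their labels in the main. Markers of heart muscle cells averaged 13.2 to 13.3 log2 in hearts and at most 8.78 in lungs, and those of alveolar type II cells 12.2 to 12.7 in lungs and at most 5.18 in hearts. Fibroblast markers averaged 10.6 to 11.1 in the fibroblasts. Adipocyte markers averaged 9.36 and 8.90 in the lungs of KO mice 1586 and 1603 and 7.17 in that of WT mouse 1592, against 3.94 to 4.31 in the other 3 lungs, so these 3 hold fat transcripts. Among hearts that of KO mouse 1602 was unlike the rest: the upper quartile of its signals was 5.63 log2, where the remaining hearts had 6.17 to 6.31. Myo1c, the targeted gene, was lower in every KO sample than in any WT sample of its tissue, at 8.69 ± 0.06 and 10.01 ± 0.27 log2 in KO and WT fibroblasts (SD, n = 2 each), 9.50 ± 0.33 and 10.65 ± 0.33 in lungs and 8.42 ± 0.12 and 9.26 ± 0.07 in hearts (SD, n = 3 each). None of these differences passed the adjusted threshold in limma (adjusted p = 0.0816, 0.0674 and 0.0866).

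Fibroblasts carried far more transcript of the division genes than lungs did. All 43 measured members were higher in fibroblasts and called (limma, adjusted p under 0.05), where 24.2% of all probe sets were called higher. The median difference was 3.36 log2 over the 28 mitosis genes and 1.60 over the 15 replication genes, against 0.03 over all probe sets. Each tissue level here is the mean of its KO and WT group means, and no filter on low values was used, so no gene entered through the tissue in which it was high. The choice of probe set by its mean over all arrays can still favour those high in fibroblasts. With the mean of all probe sets of a gene, all 43 were again called higher, with smaller medians that are given further below. Many members of both kinds, Rrm2 and Ccne1 among them in lungs, lay near or below the middle of all values, 3.79 log2, in lungs and heart. There the log2 difference can understate the fold, and sizes are not ranked closely.

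**Figure D1:**
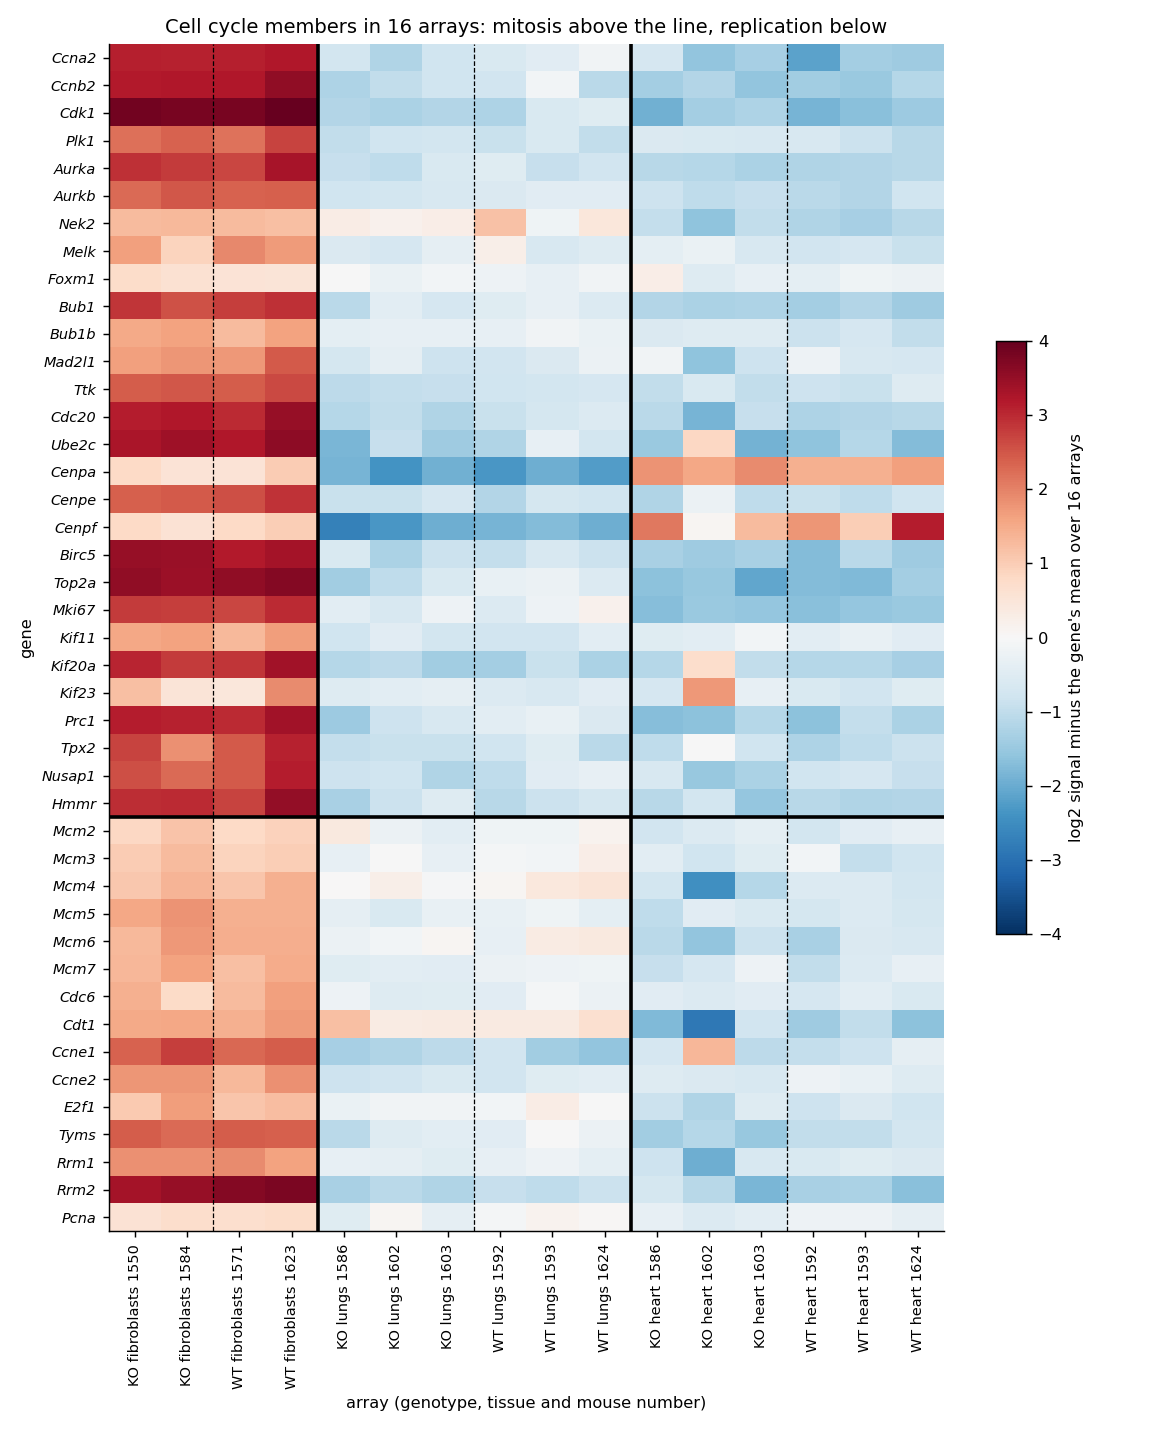
Heat map of the log2 signal of 43 genes (rows, mitosis above the heavy line, replication below) in 16 arrays (columns, by tissue, with KO left of WT across the dashed lines), each gene minus its own mean over the arrays. The 4 fibroblast arrays are high for all genes, and Cenpa and Cenpf are also above their own mean in the hearts, Cenpf least so in KO mouse 1602.

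Cdk1, the kinase that drives entry into mitosis, was 8.94 and 8.87 log2 in KO fibroblasts (mice 1550 and 1584) and 8.88 and 9.05 in WT fibroblasts (1571 and 1623). In lungs it was 3.91, 3.83 and 3.92 in KO mice (1586, 1602 and 1603) and 3.86, 4.48 and 4.60 in WT mice (1592, 1593 and 1624). In heart it was 3.17, 3.71 and 3.83 in KO mice and 3.21, 3.42 and 3.64 in WT mice, in the same order. Fibroblasts stood clear of both tissues in every array, by 4.84 log2 over lungs (SE 0.16, 28.6-fold, adjusted p = 1.34e-11). Rrm2, the small subunit of ribonucleotide reductase and so a supplier of DNA building blocks, was 8.08 and 8.24 log2 in KO fibroblasts and 8.42 and 8.50 in WT fibroblasts. It was 3.45, 3.67 and 3.54 in KO lungs and 3.81, 3.73 and 3.88 in WT lungs. Its difference between fibroblasts and lungs was 4.63 (SE 0.17, 24.7-fold, adjusted p = 4.50e-11). Rrm2 averaged 3.68 log2 in lungs, below the middle of all values, and with Ccne1 it was a replication gene whose difference exceeded the mitosis median.

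Ube2c encodes the ubiquitin-conjugating enzyme of the anaphase-promoting complex. It was 8.41 and 8.53 log2 in KO fibroblasts and 8.32 and 8.72 in WT fibroblasts, 4.44 above lungs (SE 0.41, adjusted p = 6.09e-07). Top2a, the topoisomerase that disentangles chromosomes, was 8.23 and 8.10 in KO fibroblasts and 8.22 and 8.36 in WT fibroblasts, 4.23 above lungs (SE 0.16, adjusted p = 4.04e-11). Both were far above every lung and heart value, and in heart Top2a was 3.05, 3.18 and 2.59 in KO mice and 2.96, 2.91 and 3.32 in WT mice. Ccne1, cyclin E1 of the step into S phase, was 6.99 and 7.40 in KO fibroblasts and 6.92 and 7.04 in WT fibroblasts, 3.69 above lungs (SE 0.35, adjusted p = 7.96e-07). In lungs it was 3.28, 3.41 and 3.57 in KO mice and 3.87, 3.24 and 3.02 in WT mice, and in heart 3.94, 5.93 and 3.58 in KO mice and 3.67, 3.79 and 4.25 in WT mice. At the other end stood Foxm1, a transcription factor of mitotic genes (0.78), Pcna, the sliding clamp of the replication fork (0.79), Nek2, a centrosome kinase (0.89), the licensing factor Cdt1 (0.99) and Mcm2 of the MCM helicase (1.0). Foxm1 was dim throughout, with means of 3.95 log2 in fibroblasts and 3.17 in lungs. A second, dimmer probe set of Cdt1 lay further apart, with means of 5.61 log2 in fibroblasts and 3.44 in lungs. So did a second probe set of Mcm2, at 6.86 and 5.36. The 6 MCM genes lay close together, with differences of 1.0 to 1.91 log2 over lungs.

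By role, the entry kinases and cyclins had a median difference over lungs of 3.19 log2 (9 genes), the spindle checkpoint and anaphase group 3.36 (6 genes), the centromere, chromosome and midzone group 3.27 (6 genes) and the spindle motors and microtubule factors 3.38 (7 genes). The 4 mitotic medians thus lay between 3.19 and 3.38. Among replication genes the medians were 1.30 for the MCM helicase (6 genes), 1.60 for licensing and G1/S control (5 genes) and 2.48 for nucleotide supply and clamp (4 genes).

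Against heart the picture was the same but for Cenpa and Cenpf. Of the 43 members, 41 were called higher in fibroblasts (26% of all probe sets were) and 1 lower (20.3% of all were), with medians of 3.51 log2 for mitosis and 2.22 for replication genes. This comparison uses the same fibroblast arrays as the one with lungs. The largest differences were those of Cdk1 (5.44, SE 0.16, adjusted p = 3.42e-12) and Top2a (5.23, SE 0.16, adjusted p = 4.08e-12).

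**Figure D2:**
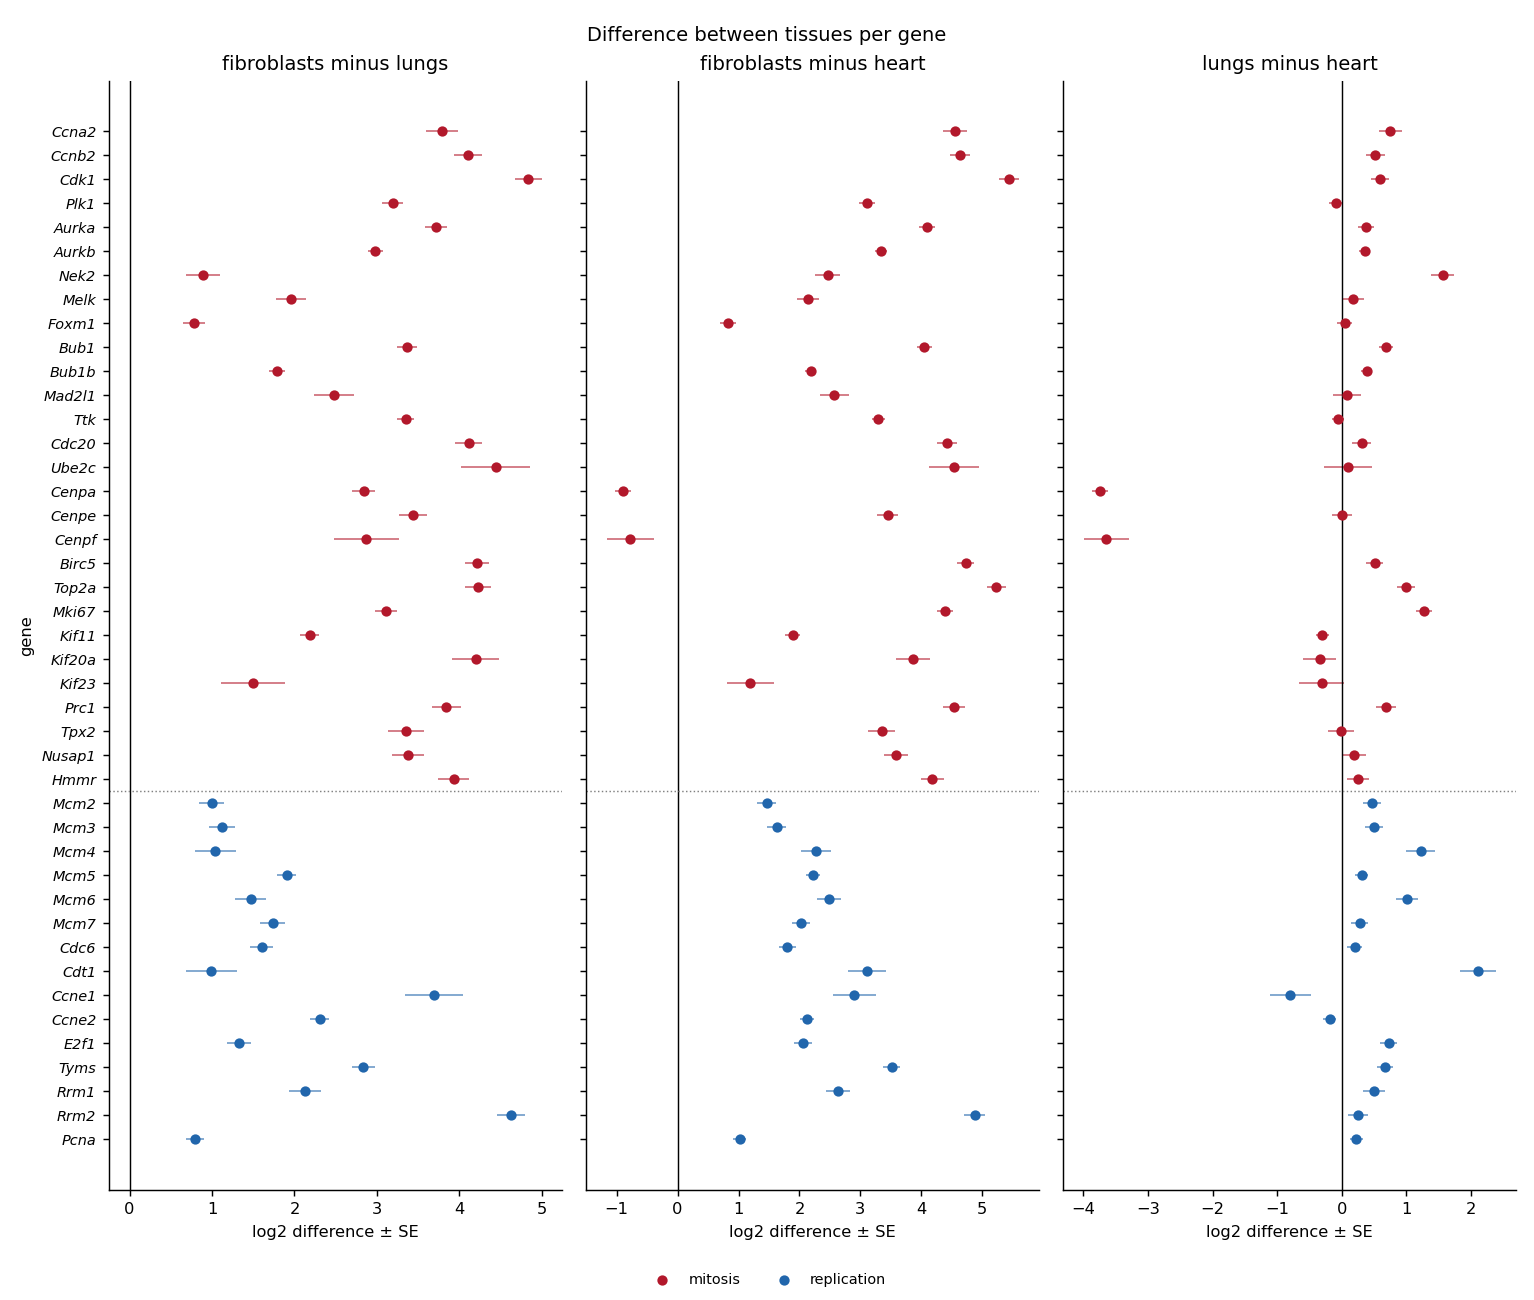
Difference between tissues in log2 (x axis, mean ± SE from limma, KO and WT group means averaged) for each of 43 genes (y axis), mitosis in red and replication in blue. In the left panel all points lie right of 0, between 0.78 and 4.84. Cenpa and Cenpf lie left of it against heart, and in the right panel 10 of 43 points do.

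Cenpa and Cenpf were high in heart. Cenpa encodes the histone variant that marks centromeres, and its transcript was called lower in fibroblasts than in heart (-0.90, SE 0.14, adjusted p = 7.67e-05). It was 8.60, 8.35 and 8.69 log2 in KO hearts (mice 1586, 1602 and 1603), against 8.22, 8.21 and 8.43 in WT hearts (1592, 1593 and 1624), above every fibroblast sample. In lungs it was 4.92, 4.41 and 4.88 in KO mice and 4.48, 4.84 and 4.56 in WT mice. Lungs were thus 3.74 below heart (SE 0.12, 13.3-fold, adjusted p = 1.04e-11). A second, dimmer probe set of Cenpa also had its highest mean in heart, 4.45 log2, against 3.66 in fibroblasts and 3.23 in lungs.

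Cenpf encodes a large kinetochore and nuclear matrix protein. It was 8.04, 6.01 and 7.19 log2 in KO hearts, against 7.68, 6.92 and 9.07 in WT hearts, a range that took in the fibroblast values of 6.72 and 6.51 in KO and 6.73 and 6.90 in WT. Fibroblasts minus heart was -0.77 (SE 0.39, adjusted p = 0.127) and lungs minus heart -3.64 (SE 0.35, 12.5-fold, adjusted p = 6.99e-07). The other 2 probe sets of Cenpf had means of only 3.38 and 3.75 log2 in heart, and the brighter of them was higher in fibroblasts, at 5.12. The high heart signal of Cenpf therefore rests on 1 of its 3 probe sets. Markers of other cell types beside it are given below with the genotype comparison, and their part in the heart signal was not tested.

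Lungs exceeded heart slightly for many members. Of 43, 21 were called higher in lungs (27.4% of all probe sets were) and 3 lower (21.6% were), namely Cenpa, Cenpf and the spindle motor Kif11 (-0.30, adjusted p = 0.0320). Kif11 averaged 3.08 log2 in lungs and 3.37 in heart, both below the middle of all values, so its direction is not read here. Other members also averaged below that value in both, such as Bub1 (3.44 and 2.76 log2) and Ccnb2 (3.52 and 2.99). Their directions are not read either. Of the 22 members whose mean over both tissues passed 3.79 log2, 15 were called higher and 3 lower in lungs. By sign 3 of the 22 were lower, where 39.7% of such probe sets were. The medians over all measured members, also those with low signals, were 0.23 log2 for mitosis and 0.47 for replication genes. Cdt1 exceeded heart by 2.12 (SE 0.27, adjusted p = 1.55e-05), Mcm4 by 1.23 and Mcm6 by 1.02. Dimmer probe sets of Cdt1 averaged 3.44 and 2.52 log2 in lungs, against 2.96 and 2.61 in heart, all below 3.79. Nek2 (1.57), the proliferation marker Mki67 (1.27) and Top2a (1.0) averaged below 3.79 log2 in heart, so that their differences may be understated. A second probe set of Nek2 lay closer together, at 4.10 log2 in lungs and 3.64 in heart, against 4.74 and 3.17 for that taken. The size for Nek2 thus depends on the probe set. With KO arrays alone 12 members were called in place of 24, and with WT arrays alone 17 were called higher and 2 lower. Lung samples also held endothelial markers at 9.35 to 10.2 log2 and macrophage markers at 5.96 to 6.51, against 7.48 to 8.36 and 5.46 to 5.97 in hearts, and the part of these cells in the difference was not tested.

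Other genes of the pathway followed the members in part. Of 100 further genes measured, 67 were called higher and 5 lower in fibroblasts than in lungs, where 24.2% and 21.3% of all probe sets were. Against heart 78 were called higher and 4 lower, where 26% and 20.3% were. Of 33 other mitosis genes, 28 were called higher and 2 lower over lungs, led by the spindle protein Ckap2 (4.98 log2) and the kinetochore subunit Spc25 (4.24). Of 32 other replication genes, 24 were called higher and 0 lower, led by Tk1, thymidine kinase (3.55), and Gins2 of the replicative helicase (3.09). Of 10 CDK inhibitors and pocket proteins, 3 were called higher in fibroblasts than in lungs (Cdkn2a, Cdkn1a and Cdkn2d) and 1 lower (Cdkn1c, -0.63, adjusted p = 0.00456). Cdkn2a, the locus of p16 and p19, was 9.51 and 9.91 log2 in KO fibroblasts and 9.62 and 9.24 in WT fibroblasts, against at most 3.70 in lungs, a difference of 6.20 (SE 0.13, adjusted p = 2.09e-13). Cdkn1a, the gene of the p53 target p21, was 3.34 above lungs (SE 0.31, adjusted p = 5.40e-07).

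Between genotypes, no member passed the test in any tissue. In lungs 0 members were called, with 0.0301% of all probe sets called. Of the 43 measured members 37 had a lower mean in KO lungs, where 51.8% of all probe sets did, with medians of -0.23 log2 for mitosis and -0.22 for replication genes. The filter (a lung mean above 3.79 log2) kept 24 members, 13 of mitosis and 11 of replication. Of these, 22 were lower in KO, where 60% of all kept probe sets were. All 6 MCM genes lay on the lower side, between -0.26 and -0.02. At an unadjusted p under 0.05 stood 3 members, all lower (3.66% of kept probe sets were).

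**Figure D3:**
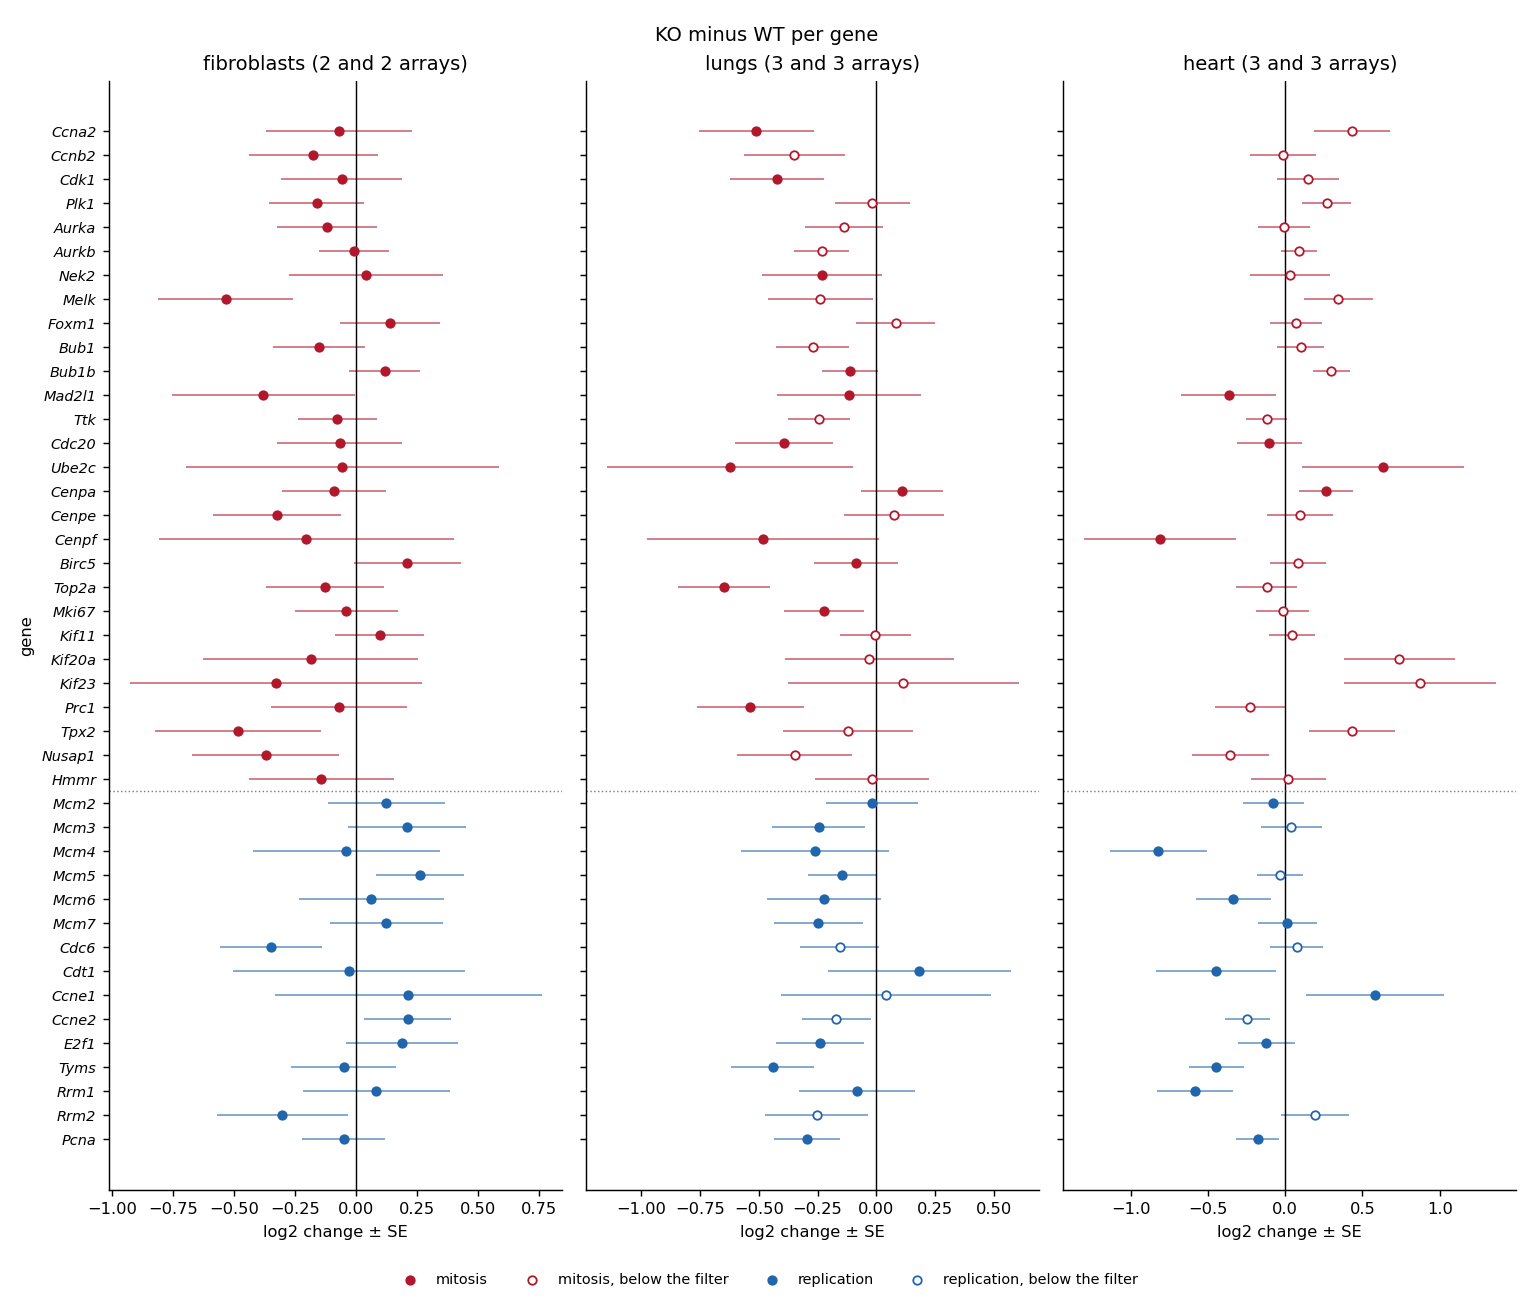
KO minus WT in log2 (x axis, mean ± SE from limma, each panel with its own scale) for each of 43 genes (y axis) in fibroblasts, lungs and heart, mitosis in red and replication in blue, with open points where the tissue mean lay at or below 3.79 log2. In lungs 37 of 43 points lie left of 0, in fibroblasts 29 and in heart 20.

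Top2a had the largest difference of a kept member in lungs. It was 3.30, 3.67 and 4.06 log2 in KO lungs (mice 1586, 1602 and 1603), against 4.39, 4.44 and 4.15 in WT lungs (1592, 1593 and 1624). All KO values lay below all WT values, and the difference was -0.65 (SE 0.20, adjusted p = 0.711). Prc1, which bundles microtubules in the midzone, was 3.39, 4.03 and 4.20 in KO lungs and 4.41, 4.55 and 4.26 in WT lungs (-0.54, SE 0.23, adjusted p = 0.711). Its groups did not overlap either. Dimmer probe sets of the same genes, below the filter, did not show it: KO minus WT was -0.03 and -0.09 for the others of Top2a and 0.10 for that of Prc1. Ube2c was 3.31, 4.21 and 3.72 in KO lungs and 3.92, 4.80 and 4.39 in WT lungs, which overlap (-0.62, SE 0.52, adjusted p = 0.778).

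Tyms, thymidylate synthase, was 4.76, 5.34 and 5.42 log2 in KO lungs, against 5.40, 5.82 and 5.63 in WT lungs. Its groups overlapped at 1 KO and 1 WT value, with a difference of -0.44 (SE 0.18, adjusted p = 0.711). Pcna was 8.90, 9.45 and 9.02 in KO lungs and 9.29, 9.54 and 9.43 in WT lungs (-0.30, SE 0.14, adjusted p = 0.711), with KO mouse 1602 inside the WT range. Much of the size came from KO mouse 1586. Without its lung the difference was -0.29 for Prc1, -0.23 for Tyms, -0.18 for Pcna and -0.41 for Ube2c. That of Ube2c was also -0.41 without WT mouse 1593, and that of Pcna -0.46 without KO mouse 1602. Top2a kept between -0.84 and -0.46 with any 1 lung left out. The groups of 6 of the 24 kept members did not overlap and were lower in KO, namely Top2a, Prc1, Ccna2, Cdc20, Mcm7 and E2f1, where 6.46% of kept probe sets did. The count depends on the probe set taken. Second kept probe sets of Ccna2, Mcm7 and E2f1 were lower by less, at -0.15, -0.05 and -0.07, against -0.51, -0.25 and -0.24 for those taken.

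Other values moved with the lungs. The mean over the mitosis genes was 3.54, 3.63 and 3.72 log2 in the lungs of KO mice and 3.76, 3.91 and 3.86 in WT lungs, and that over the replication genes 5.16, 5.17 and 5.14 in KO and 5.23, 5.37 and 5.38 in WT. KO mouse 1586 had the lowest value for 9 of the 24 kept members, and WT mice 1593 and 1624 the highest for 10 and 9. The 5 adipocyte markers averaged 9.36, 3.94 and 8.90 log2 in KO lungs, against 7.17, 4.14 and 4.31 in WT lungs, with 2 to 5 of 5 above 3.79 in each. Endothelial markers averaged 9.35, 9.90 and 9.65 in KO and 9.48, 10.2 and 10.2 in WT, with 4 of 4 above it in each. Markers of thymocytes, dividing cells of the chest, had 0 of 7 above it in every lung, with means of 2.96 to 3.10. Without the 3 lungs that held fat transcripts only 1 KO lung was left against 2 WT lungs. There 11 of 13 kept mitosis genes and 11 of 11 kept replication genes were lower, where 54.0% of kept probe sets were, a count that rests on that 1 KO lung. The part of the other cell types in the lower values was not tested.

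**Figure D4:**
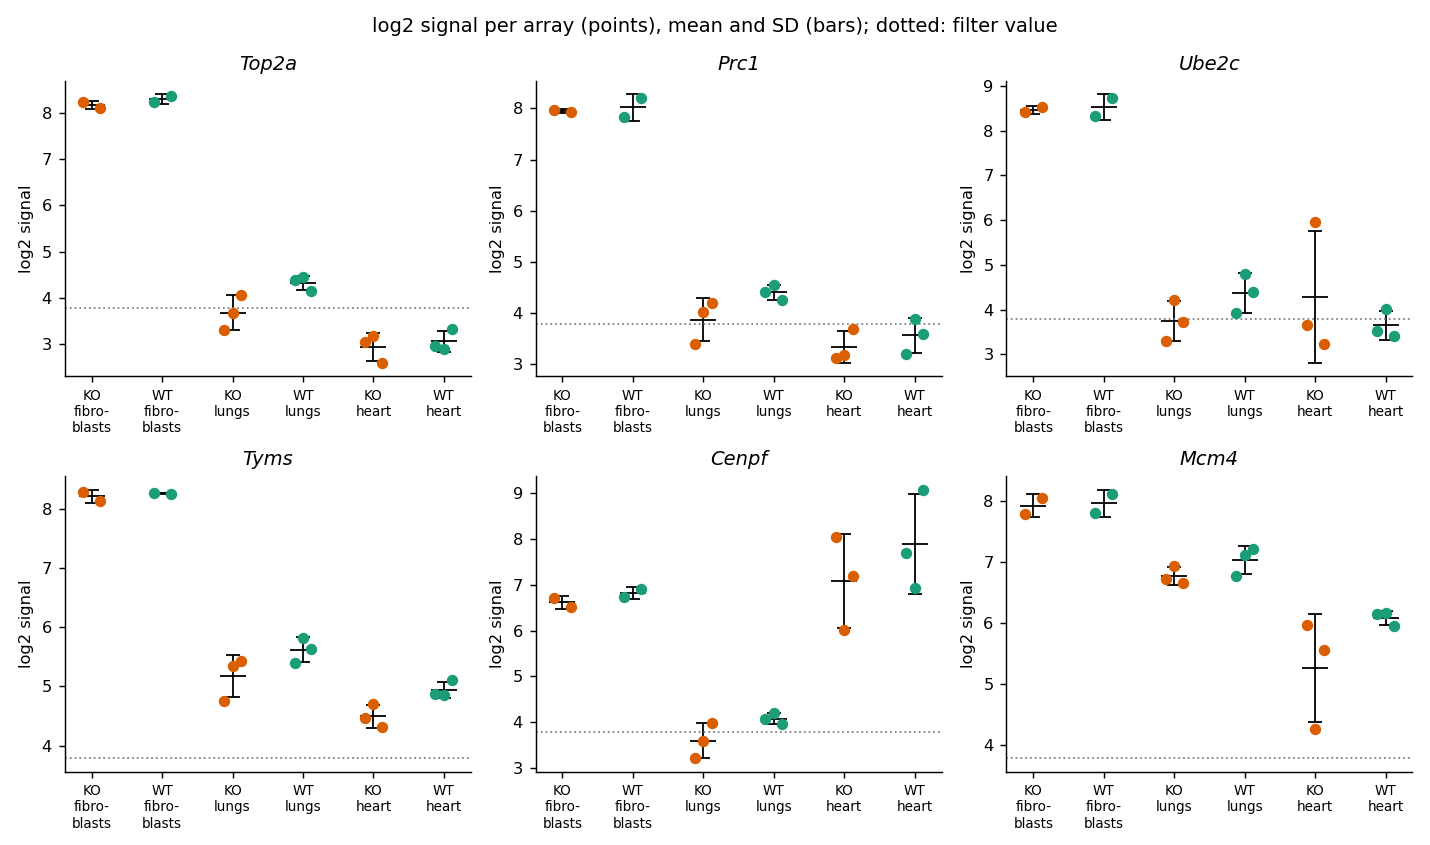
Log2 signal (y axis) of 6 genes in each array (points, KO in orange and WT in green), with the mean and SD of each group (bars, n = 2 for fibroblasts and 3 for lungs and heart) and the value 3.79 as a dotted line. Top2a and Prc1 do not overlap between KO and WT lungs, and the KO heart of mouse 1602 is the highest Ube2c and the lowest Cenpf and Mcm4 value among hearts.

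In heart 0 members were called, with 0.127% of all probe sets called. Of the 43 measured members 20 were lower and 23 higher in KO. The filter kept 15, of which 11 were lower, where 72.2% of all kept probe sets were. The median over all kept probe sets was itself -0.16 log2 and came to -0.02 after quantile normalization, so the members are read against that shift. Their own medians over all measured were 0.07 for mitosis and -0.12 for replication genes. Of the 10 kept replication genes 8 were lower, and of the 5 kept mitosis genes 3.

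Mcm4 was 5.97, 4.27 and 5.56 log2 in KO hearts (mice 1586, 1602 and 1603), against 6.14, 6.17 and 5.95 in WT hearts (1592, 1593 and 1624), a difference of -0.82 (SE 0.31, adjusted p = 0.222). Rrm1, the large subunit of ribonucleotide reductase, was 6.43, 5.30 and 6.60 in KO hearts and 6.64, 6.77 and 6.67 in WT hearts (-0.58, SE 0.25, adjusted p = 0.254). KO mouse 1602 gave the lowest value of both, and without it the differences were -0.32 for Mcm4 and -0.18 for Rrm1. Cenpf, with the values given above, differed by -0.81 (SE 0.49, adjusted p = 0.415), with overlapping groups. This difference was -0.22 without WT mouse 1624 and -0.27 without KO mouse 1602, but -1.30 without WT mouse 1593 and -1.29 without KO mouse 1586. The other probe sets of Cenpf, below the filter in heart, gave 0.49 and -0.18. Mad2l1, a spindle checkpoint protein, was 6.24, 4.76 and 5.57 in KO hearts and 6.19, 5.76 and 5.72 in WT hearts (-0.37, SE 0.31, adjusted p = 0.556), which overlap. Its difference was 0.014 without KO mouse 1602, -0.21 without WT mouse 1592 and -0.73 without KO mouse 1586. Ube2c was 3.65, 5.96 and 3.23 in KO hearts and 3.52, 4.0 and 3.41 in WT hearts (0.63, SE 0.52, adjusted p = 0.553). The value of KO mouse 1602 lay above all others, and those of the other 2 KO hearts lay inside or below the WT range. Without KO mouse 1603 the difference was 1.16.

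Tyms, in heart as in lungs, was lower in KO, at 4.46, 4.70 and 4.32 log2 against 4.86, 4.85 and 5.10 in WT hearts (-0.45, SE 0.18, adjusted p = 0.232). Tyms and Rrm1 were the 2 of 15 kept members whose groups did not overlap and were lower, where 13.7% of kept probe sets were. A second probe set of Rrm1, also kept in heart with a mean of 4.91 log2, was not lower, at 0.08. The 3 members at an unadjusted p under 0.05, all lower, were Mcm4, Rrm1 and Tyms, where 14.9% of kept probe sets were. The share of such members was near the background.

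The heart of KO mouse 1602 decided much of this. It gave the lowest value for 9 of the 15 kept members. It also gave the highest heart value of Ube2c, Kif20a (5.23 log2), Kif23 (5.03) and Ccne1 (5.93), while no other heart passed 3.53, 2.97 and 4.25 for the last 3. Without it 8 of 14 kept members were lower, where 54.4% of kept probe sets were. Markers of atrial muscle averaged 6.30, 5.47 and 11.2 log2 in KO hearts, against 11.5, 12.2 and 10.3 in WT hearts, with 3 or 4 of 4 above 3.79 in each. Fibroblast markers averaged 7.05, 6.81 and 7.30 in KO and 7.38, 7.95 and 7.44 in WT hearts, with 5 or 6 of 7 above it. Erythroid markers averaged 7.74, 7.72 and 7.47 in KO and 9.03, 8.54 and 8.19 in WT hearts, with 3 or 4 of 4 above it. Mesothelial markers averaged 4.13, 3.87 and 6.46 in KO and 7.51, 5.80 and 5.69 in WT hearts, with 3 to 5 of 5 above it. The part of atrial tissue and of other cells in these values was not tested.

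In fibroblasts, where all 43 members passed the filter, 0 were called, with 0.0549% of all probe sets called, and 0 had an unadjusted p under 0.05, where 3.33% did. Of the 28 mitosis genes 23 were lower in KO, with a median of -0.10 log2, and of the 15 replication genes 6, with a median of 0.08, where 44.7% of all probe sets were lower. Of the 6 MCM genes 5 were higher, between 0.06 and 0.26. The directions hung on 1 array, since WT mouse 1623 had the highest value for 29 of 43 members. Without it 14 members were lower and 29 higher.

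Melk, a kinase of dividing cells, had the largest difference. It was 5.33 and 4.59 log2 in KO fibroblasts (mice 1550 and 1584) and 5.61 and 5.38 in WT fibroblasts (1571 and 1623), or -0.53 (SE 0.28, adjusted p = 1.0). Tpx2, a spindle assembly factor, was 6.92 and 6.03 in KO and 6.65 and 7.27 in WT fibroblasts (-0.49, SE 0.34). Mad2l1 was 8.01 and 8.16 in KO and 8.12 and 8.82 in WT fibroblasts (-0.38, SE 0.38). Both overlapped. Cdc6, which loads the helicase onto origins, was 5.16 and 4.51 in KO and 5.0 and 5.36 in WT fibroblasts (-0.35, SE 0.21), also with overlap. Rrm2, with its values above, differed by -0.30 (SE 0.27) without overlap. The adjusted p was 1.0 for these as well. Without KO mouse 1584 the differences of Melk, Tpx2 and Cdc6 were -0.17, -0.04 and -0.03, and without KO mouse 1550 they were -0.90, -0.93 and -0.67. Without WT mouse 1623 those of Tpx2, Mad2l1 and Cdc6 were -0.17, -0.03 and -0.17, and without WT mouse 1571 they were -0.80, -0.73 and -0.53. Single arrays thus set the size of all but Rrm2, which kept between -0.38 and -0.22. A second probe set of Rrm2, with a fibroblast mean of 7.06 log2, did not show the difference, at 0.03. That of Tpx2, with a fibroblast mean of 5.39 log2, gave 0.002. Groups did not overlap and were lower in KO for 4 members, Melk, Cenpe, Rrm2 and Cenpf (13% of all probe sets), and higher for 4, Foxm1, Mcm3, Birc5 and Mcm5 (19.5% of all), so neither share passed the background. With 2 arrays a group these tests are weak.

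The genotype effect was also compared between tissues, with lungs, heart and fibroblasts set against each other. No member was called in any of the 3 differences, with 0% of all probe sets called for lungs minus heart, 0.0197% for lungs minus fibroblasts and 0.0203% for heart minus fibroblasts. At an unadjusted p under 0.05, where 7.22% of probe sets stood for lungs minus heart, 4.37% for lungs minus fibroblasts and 7.77% for heart minus fibroblasts, stood Ccna2, cyclin A2 (-0.94, SE 0.35, adjusted p = 0.676), and Bub1b, the checkpoint kinase BubR1 (-0.41, SE 0.17, adjusted p = 0.677), for lungs minus heart, and Melk for heart minus fibroblasts (0.88, SE 0.36, adjusted p = 0.610). For Ccna2 the lungs gave -0.51 and the heart 0.43, and the heart means of Ccna2, Bub1b and Melk (3.51, 3.63 and 3.09 log2) all lay below 3.79. A second probe set of Ccna2, with means of 3.84 log2 in lungs and 3.44 in heart, gave -0.15 in both. The lower values in lungs are thus not shown to differ from those of the other tissues. These comparisons share arrays and are given side by side only.

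Of the 100 other pathway genes, 1 was called between genotypes. Cdk6, a kinase of the G1 phase that works with D cyclins, was 5.41, 4.61 and 4.83 log2 in KO hearts (mice 1586, 1602 and 1603), against 5.88, 6.28 and 5.81 in WT hearts (1592, 1593 and 1624). It fell by 1.04 log2 (SE 0.18, adjusted p = 0.0473), with no overlap. The call ended under several settings, with an adjusted p of 0.0675 after quantile normalization, 0.0964 without the filter, 0.0720 with the mean of its probe sets and 0.503 in a fit on hearts alone. It also ended without KO mouse 1602 (0.122), WT mouse 1592 (0.0853), WT mouse 1624 (0.0505) or WT mouse 1593 (0.204). In lungs Cdk6 differed by -0.02 and in fibroblasts by -0.32, and neither passed. Other low values in heart were those of Cdkn1a (-0.83, adjusted p = 0.299), Cdkn2c, the inhibitor p18 of that kinase (-0.79, adjusted p = 0.115), and Smc2, a condensin subunit (-0.73, adjusted p = 0.103). None of these passed. In all, 61 of the 100 were kept in heart and 48 were lower, close to the 72.2% of all kept probe sets, with 1 called.

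In lungs 65 of the other pathway genes were kept and 50 were lower, where 60% of all kept probe sets were, with 0 called. The largest difference was that of Rfc4, a subunit of the clamp loader (-0.74, SE 0.24, adjusted p = 0.711), followed by Fen1, the flap endonuclease of lagging strands (-0.37, SE 0.14, adjusted p = 0.711), among replication genes. In fibroblasts 95 were kept and 51 were lower, where 44.7% of all kept probe sets were, with 0 called. Cyclin D1, Ccnd1, was 9.50 and 10.06 log2 in KO and 10.71 and 10.68 in WT fibroblasts (-0.91, SE 0.25, adjusted p = 0.526). The inhibitor Cdkn1c, p57, was lower in KO (-0.82, SE 0.25, adjusted p = 0.693), and Cdc25c, the phosphatase that activates CDK1, was higher (0.59, SE 0.15, adjusted p = 0.382), none of them past the threshold.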

How the data were processed

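Gene expression was measured on 16 Affymetrix arrays in 6 groups, each from 6 ug of total RNA. Precision is limited by how many arrays there are. For each probe set the authors deposited 1 log2 signal per array, made with Partek 6.4 per the submitters' processing notes. The sources used here do not say how background was corrected or arrays were normalized. Of 45141 entries, 104 were controls. Of the other 45037 probe sets, 28898 had 1 gene in the platform annotation, 551 several and 15588 none, and 28689 were matched to a current symbol.

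From these values, 1 model with a mean per group was fitted to all 16 arrays with limma 3.58.1 in R 4.3.3 (10 residual and 3.53 prior degrees of freedom), over all probe sets. P-values were adjusted by Benjamini-Hochberg, and an adjusted p under 0.05 was called. Comparisons of KO with WT kept probe sets with a tissue mean above the median of all values, 3.79 log2 (for differences between tissues, in either tissue). Comparisons of tissues used no filter. The fit was tested on simulated data. Exact permutation tests could not go below 0.1 with 3 against 3 arrays or 0.333 with 2 against 2.

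Lungs and heart came from the same 6 mice, per the labels, so mouse was tried as a replicate block. The correlation of a mouse's deviations in lungs with those in its own heart was 0.0597 to 0.128, and the consensus correlation was 0.0542. Alternatives changed the normalization, filter, probe set, array weights, variance prior, arrays fitted and arrays left out. The members and lists were chosen with earlier results of these data known. Values of every sample are given for the members with the largest differences among those kept (3 of mitosis and 2 of replication per comparison) and for any member called. Cenpa, Cenpf, Tyms in heart and the genes high in the heart of KO mouse 1602 were named after their values were seen. Promoters are RefSeq windows on GRCm38.p6, the first listed per gene.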

Additional observations from a re-analysis of the deposited data

How the results depend on the processing

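The counts of members called stayed within 1.5 times of those reported under every alternative run, except between lungs and heart with KO arrays only. There 12 were called (10 higher and 2 lower), against 17 higher and 2 lower with WT arrays only. Each of these settings compared fewer arrays, and the cause of the lower count was not tested. No direction of a median over mitosis or replication genes in a comparison of tissues turned. Leaving out 1 array at a time, 42 to 43, 41 to 43 and 21 to 26 members were called for fibroblasts over lungs, fibroblasts over heart and lungs over heart, and 0 between genotypes. With mouse as a random replicate block, 43, 42 and 25 members were called between tissues, and 0 between genotypes. As a fixed block, 22 were called between lungs and heart. The block changed no other call. Medians over the lists moved as follows, and the cause was not tested.

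With the mean of all probe sets of a gene, fibroblasts minus lungs gave 2.44 log2 for mitosis and 1.34 for replication, fibroblasts minus heart 2.50 and 1.91, and lungs minus heart 0.083 and 0.20. KO minus WT in lungs gave -0.12 and -0.16, the replication median in heart 0.0056, and the difference of KO effects between heart and fibroblasts -0.12 for replication. With probe sets that carry no s, x or a suffix, fibroblasts minus lungs gave 3.15 and 1.51, fibroblasts minus heart 3.20 for mitosis and lungs minus heart 0.070 for mitosis. KO minus WT in lungs gave -0.14 for mitosis, the lungs minus heart KO difference -0.20 for mitosis, and the heart minus fibroblasts one -0.17 for replication. After quantile normalization the replication medians were 2.10 (fibroblasts minus heart), 0.28 (lungs minus heart) and -0.16 (heart minus fibroblasts KO difference). With array weights, KO minus WT in lungs gave -0.13 for mitosis, and lungs minus heart 0.36 for replication. With KO arrays only, fibroblasts minus heart gave 3.36 and 2.37, and lungs minus heart 0.36 for replication. With WT arrays only, fibroblasts minus heart gave 3.73 and 2.01, and lungs minus heart 0.45 for mitosis.

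Leaving out 1 array at a time, KO minus WT ranged over -0.27 to 0.05 for mitosis and -0.029 to 0.22 for replication in fibroblasts, where the mitosis sign turned without WT mouse 1623. In lungs it ranged over -0.25 to -0.19 and -0.26 to -0.13. The KO differences ranged over -0.32 to -0.22 and -0.12 to 0.0073 (lungs minus heart), -0.29 to -0.033 and -0.35 to -0.13 (lungs minus fibroblasts), and -0.0047 to 0.35 and -0.35 to -0.065 (heart minus fibroblasts). Between tissues they were 3.25 to 3.46 and 1.51 to 1.69 (fibroblasts minus lungs), and 0.16 to 0.31 and 0.35 to 0.53 (lungs minus heart). Among single genes, leaving out 1 array moved by over 1.5 times the differences of Melk, Tpx2, Mad2l1 and Cdc6 in fibroblasts, Ube2c, Prc1, Tyms and Pcna in lungs, and Cenpf, Ube2c, Mad2l1, Mcm4 and Rrm1 in heart, with the values given beside them. Ube2c in heart turned to -0.076 with array weights, and Mad2l1 in heart to 0.014 without KO mouse 1602, with a range of -0.73 to 0.014 over arrays left out. Ube2c in heart fell below the filter without KO mouse 1602, so that setting gave no value for it. The setting without the lungs that held fat transcripts was chosen after seeing the data. The run without the heart of KO mouse 1602 was among those leaving out 1 array at a time, and was singled out after seeing the data. Signals near background limit the fold that mitosis genes can show in lungs and heart.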
